A study of Mus musculus with 9 samples.

Results

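Il9r encodes the ligand-binding chain of the receptor for interleukin 9 (IL-9). It was described here with 7 chains that pair with it or are related to it, in splenic follicular B cells whose heavy chain locus carried 1 of 3 alleles. The 8 genes were taken by name: Il9r, the common gamma chain Il2rg, and Il4ra, Il7r, Il21r, Il2ra, Il2rb and Il13ra1, out of 22180 genes named on the array. Il9r was chosen because its signal was higher in both mutant genotypes than in wild-type cells, so that difference is a description and carries no test. The other chains were chosen by family. A probe set with the gene's single symbol stood for 7 of the 8 chains, each with 1 probe set. No probe set carried the single symbol Il2rg, so the partner chain itself was not analysed here.

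The cells were sorted from spleens of polyclonal mice of 6 to 12 weeks kept free of specific pathogens. Of the 9 samples, 3 carried the genotype Ighε/ε VJk5, 3 carried Ighγ1/γ1 VJk5 and 3 carried Ighwt VJk5. All groups therefore share VJk5, which the labels do not explain, nor do they say how the ε and γ1 alleles were built. The series is about how the heavy chain isotype and the dose of B cell receptor bear on B cell fate. The labels do not name the replicates as separate animals, so the p-values reflect variation among these samples, part of which may be technical.

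The receptors for IL-2, IL-4, IL-7, IL-9, IL-15 and IL-21 each join a private chain to the shared gamma chain encoded by Il2rg. The private chain mostly binds the kinase JAK1 and the gamma chain binds JAK3, and the pair activates STAT transcription factors. In B cells IL-4 drives class switching and CD23, IL-21 supports germinal centres and plasma cells, and IL-7 supports the precursors in the bone marrow. Il13ra1 has no gamma chain partner of its own: it pairs with Il4ra in the second type of IL-4 receptor.

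The promoter windows of the 3 chains with signals above the array medians on all 9 arrays are shown because the genotypes differ at the first and not detectably at the others. Each window runs from 250 bases before to 50 bases after a RefSeq start (GRCm38.p6), 5′ to 3′ along the gene. Capitals mark matches to the motifs searched. Il9r lies on the minus strand at chr11:32200230-32200529, and Il4ra and Il21r lie on the plus strand at chr7:125552021-125552320 and chr7:125603179-125603478.
Il9r: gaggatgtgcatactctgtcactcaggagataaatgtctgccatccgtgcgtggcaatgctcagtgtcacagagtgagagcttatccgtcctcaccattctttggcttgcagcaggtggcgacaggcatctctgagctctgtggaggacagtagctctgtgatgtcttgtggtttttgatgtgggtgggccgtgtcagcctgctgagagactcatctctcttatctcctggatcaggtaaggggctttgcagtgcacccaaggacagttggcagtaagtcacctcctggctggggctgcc
Il4ra: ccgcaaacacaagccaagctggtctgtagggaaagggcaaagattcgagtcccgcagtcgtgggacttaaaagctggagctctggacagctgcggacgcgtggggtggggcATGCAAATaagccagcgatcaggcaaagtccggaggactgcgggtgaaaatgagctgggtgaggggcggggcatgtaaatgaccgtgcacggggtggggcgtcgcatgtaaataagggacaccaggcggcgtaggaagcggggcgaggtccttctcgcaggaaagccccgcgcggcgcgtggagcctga
Il21r: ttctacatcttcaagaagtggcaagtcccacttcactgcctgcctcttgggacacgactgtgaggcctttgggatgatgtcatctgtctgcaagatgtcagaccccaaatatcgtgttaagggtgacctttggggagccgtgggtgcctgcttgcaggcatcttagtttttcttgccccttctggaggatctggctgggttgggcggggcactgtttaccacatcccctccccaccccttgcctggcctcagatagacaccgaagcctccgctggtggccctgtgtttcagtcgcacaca
The motifs, searched on both strands, were a STAT site with 3 free bases in its middle (TTCNNNGAA), the STAT6 form with 4 free bases between TTC and GAA, the AP-1 site TGACTCA, the PU.1 site GAGGAAGT and the octamer ATGCAAAT. The Il9r and Il21r windows held 0 matches. The Il4ra window held 1 octamer, from base -139 to -132 counted from 0 at the start. Among 32851 promoter windows of this length, 8.3% held the first STAT form, 6.95% the second, 5.2% the AP-1 site, 3.2% the PU.1 site and 1.74% the octamer. Of the other chains with a window, only Il7r held a match, 1 STAT site of the first form. The Il9r window had a GC content of 54.3% with 5 CpG pairs and the Il4ra window 62% with 25. A match is a description of letters, and its absence from a window says nothing about a factor.

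Il9r was high in both mutant genotypes and low in wild-type cells. On the log2 scale its probe set, 17261458, read 8.52, 9.03 and 8.44 in ε/ε replicates 1 to 3. It read 8.53, 8.88 and 9.03 in the γ1/γ1 replicates and 6.29, 5.12 and 6.10 in the wild-type replicates. The 6 mutant arrays all lay above the 3 wild-type arrays, with 2.15 between the lowest mutant and the highest wild-type reading. The wild-type mean was 5.84 ± 0.63 (SD, n = 3), against 8.66 ± 0.32 for ε/ε and 8.81 ± 0.25 for γ1/γ1. The difference from wild-type was 2.82 (SE 0.30, 7.08-fold) in ε/ε and 2.98 (SE 0.30, 7.87-fold) in γ1/γ1, and both use the same wild-type arrays. Ordered from the highest difference, Il9r stood 9 among 12170 genes tested in ε/ε and 2 in γ1/γ1. Over the alternatives that give it a value the difference stayed between 2.46 and 3.05 in ε/ε and between 2.62 and 3.20 in γ1/γ1.

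The level of Il9r did not differ detectably between the mutant genotypes. The difference of ε/ε minus γ1/γ1 was -0.15 (SE 0.30, 95% interval -0.81 to 0.51, limma adjusted p = 0.816), and their arrays overlapped. The order of levels was therefore γ1/γ1, ε/ε and wild-type, with the first 2 not told apart by their spread.

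**Figure D1:**
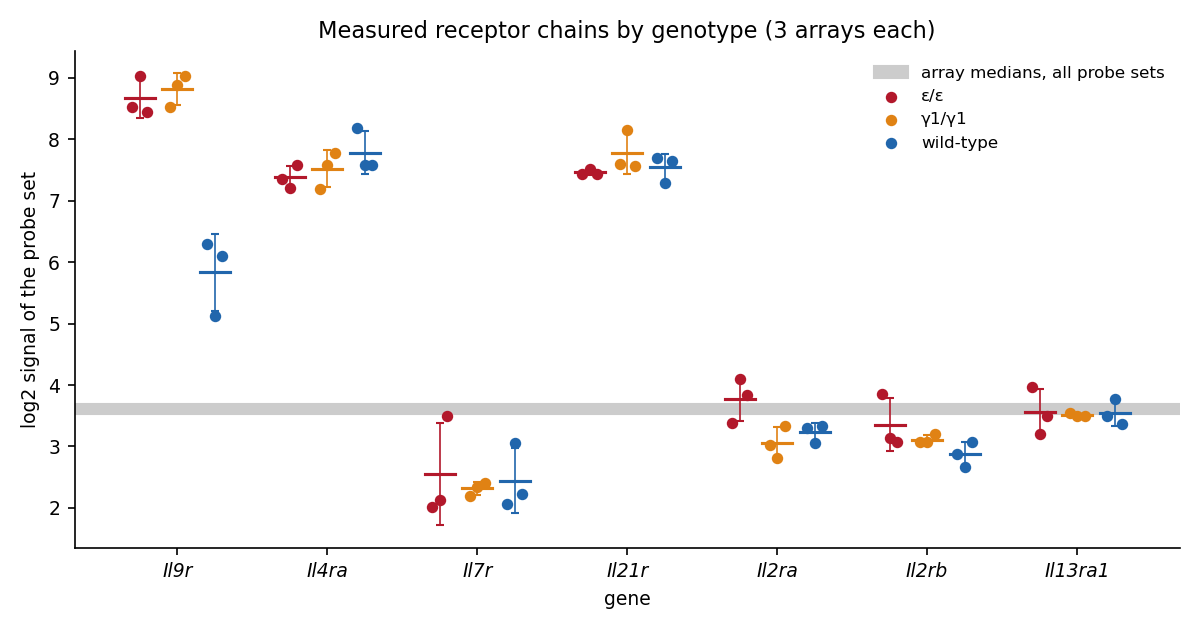
Log2 signal of each measured receptor chain (vertical axis) in ε/ε, γ1/γ1 and wild-type follicular B cells; points are arrays, bars the mean and SD of 3 arrays, and the grey band the range of array medians over all probe sets. Il9r reads 8.44 to 9.03 in the mutants and 5.12 to 6.29 in wild-type, while Il4ra and Il21r overlap between the mutants and wild-type and the other 4 chains lie near or below the band.

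How often the genotypes differed over all genes sets the background for the related chains. Between ε/ε and wild-type 772 genes passed at a limma adjusted p under 0.05, or 6.34% of those tested. Of the calls 283 were higher (2.33%) and 489 lower (4.02%), a split that became 410 and 300 under quantile normalization. Between γ1/γ1 and wild-type 5 passed, or 0.0411%, with 3 higher (0.0247%) and 2 lower (0.0164%). The count includes Il9r, whose rise chose it and for which passing is no test. The other 4 were the calcium channel gene Cacna1e (1.62, SE 0.17), the sialyltransferase gene St8sia6 (1.53, SE 0.17), the gene 4930597A21Rik (-1.78, SE 0.21) and Ighm, the constant region gene of IgM (-1.96, SE 0.24), named after their values were seen. Between ε/ε and γ1/γ1 324 passed, or 2.66%, with 124 higher (1.02%) and 200 lower (1.64%), or 203 and 177 under quantile normalization and 151 and 126 after median centring. An unadjusted p under 0.05 was reached by 24.8%, 6.82% and 19.9% of genes in these comparisons. The counts of calls leaned on single arrays. The first was 512, 186 and 210 without wild-type replicates 1, 2 and 3. The second was 0 and 3 without γ1/γ1 replicates 2 and 3 and 2 without wild-type replicate 2 or 3. The third was 196 without ε/ε replicate 1, 140, 160 and 122 without γ1/γ1 replicates 1, 2 and 3, and 203, 213 and 167 without wild-type replicates 1, 2 and 3.

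None of the measured relatives of Il9r was called, a count near the share over all genes for so few chains. That share was 6.34%, 0.0411% and 2.66% in the 3 comparisons, so the count alone says little about the relatives. Without the filter, 603, 5 and 275 of the 22180 genes were called. Of the chains other than Il9r, 2 passed the filter, and 0 of them were called in limma in any of the 3 comparisons, with 0 at an unadjusted p under 0.05. Without the filter 6 relatives entered against wild-type and 0 were called, with 2 at an unadjusted p under 0.05 in ε/ε and 0 in γ1/γ1. Between ε/ε and γ1/γ1 0 of 7 chains were called, with 1 at an unadjusted p under 0.05. These counts of 0 held under each of the 19 alternatives listed in the methods.

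Il4ra, the chain that binds IL-4, had slightly lower means in the mutants, within the error. Its probe set read 7.35, 7.20 and 7.58 on the ε/ε arrays, 7.19, 7.58 and 7.78 on the γ1/γ1 arrays and 8.18, 7.58 and 7.58 on the wild-type arrays. The highest reading was wild-type replicate 1, and the mutants overlapped the wild-type range. The difference was -0.40 (SE 0.21, 95% interval -0.88 to 0.07, adjusted p = 0.278) in ε/ε and -0.27 (SE 0.21, interval -0.74 to 0.21, adjusted p = 0.839) in γ1/γ1. The mutants differed in Il4ra by -0.14 for ε/ε minus γ1/γ1 (SE 0.21, adjusted p = 0.765).

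Il21r, the receptor for the helper T cell cytokine IL-21, lies next to Il4ra on chromosome 7. It read 7.44, 7.51 and 7.44 on the ε/ε arrays, 7.60, 8.15 and 7.56 on the γ1/γ1 arrays and 7.70, 7.29 and 7.64 on the wild-type arrays. The readings of γ1/γ1 all lay above those of ε/ε, and each mutant overlapped wild-type. The difference from wild-type was -0.08 (SE 0.18, interval -0.49 to 0.33, adjusted p = 0.826) in ε/ε and 0.23 (SE 0.18, interval -0.18 to 0.64, adjusted p = 0.841) in γ1/γ1. Under quantile normalization the ε/ε difference was 0.09. Between ε/ε and γ1/γ1 it was -0.31 (SE 0.18, adjusted p = 0.379). Over all genes tested, 11.3% had every ε/ε array below every γ1/γ1 array.

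**Figure D2:**
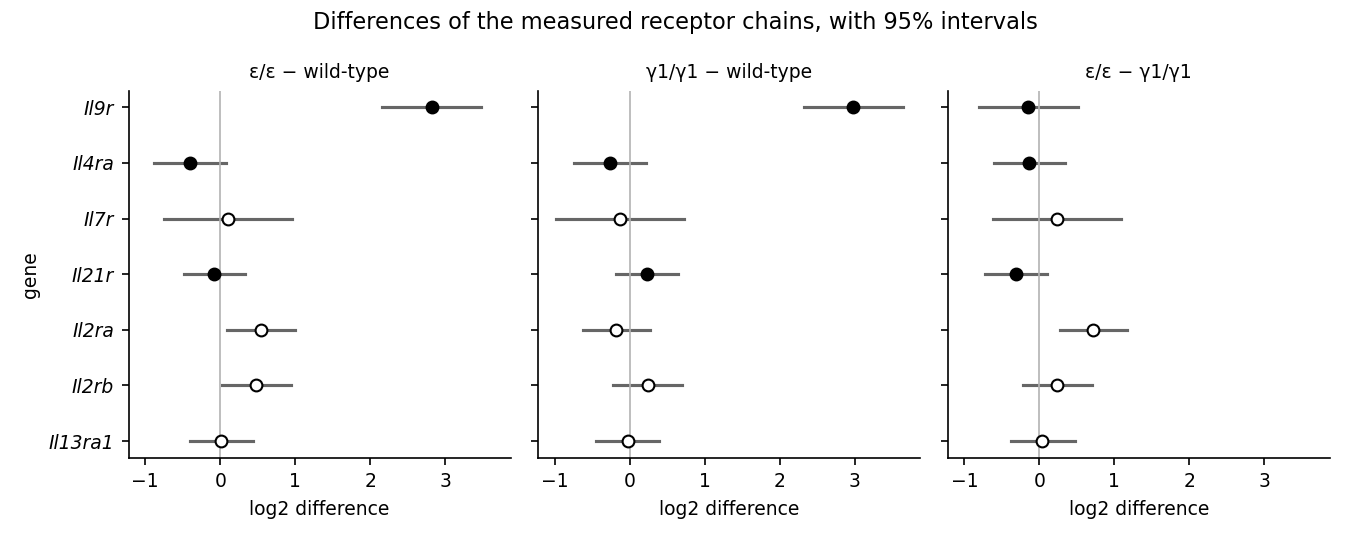
Log2 difference of each measured chain (horizontal axis) with its 95% interval from limma, with a panel for each pair of genotypes; filled points passed the filter on dim genes and open points come from the fit without it. Il9r, chosen for its rise, lies at 2.82 and 2.98 against wild-type, and Il4ra at -0.40 and -0.27.

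The remaining 4 chains were dim, above the array median on at most 2 of 9 arrays, so no fold is given and a change below that level would not be seen. Il2ra, the high-affinity chain of the IL-2 receptor (CD25), read 3.39, 4.10 and 3.83 in ε/ε. It read 3.02, 2.81 and 3.33 on the γ1/γ1 arrays, and the wild-type arrays lay between 3.06 and 3.33. All ε/ε readings exceeded the other 6. Over all genes tested, 11.8% had every ε/ε array above wild-type and 9.86% above γ1/γ1. In the fit without the filter the difference was 0.54 against wild-type (SE 0.20, adjusted p = 0.189) and 0.72 against γ1/γ1 (SE 0.20, adjusted p = 0.121).

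Il2rb, the chain shared by the IL-2 and IL-15 receptors, read 3.86 in ε/ε replicate 1 and between 2.67 and 3.20 on the other arrays. The ε/ε difference without the filter was 0.48 (SE 0.21, adjusted p = 0.253), and it was 0.23 without that array. The same array had the highest summed signal of macrophage markers, 11.19 on the log2 scale against 7.49 to 8.69 elsewhere, and the part of these cells in the Il2rb reading was not tested.

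Il7r, the IL-7 receptor of B cell precursors and T cells, read 2.01 to 3.50, below the array median on every array. Il13ra1 read 3.21 to 3.96, and the genotypes differed by 0.01 (ε/ε from wild-type), -0.03 (γ1/γ1 from wild-type) and 0.04 (ε/ε from γ1/γ1). Il13ra1 lies on the X chromosome. On the arrays with low Xist, ε/ε replicate 1 and γ1/γ1 replicate 1, it read 3.96 and 3.55.

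The other receptors and ligands of the family gave no call in limma. At an unadjusted p under 0.05 there was 1 ligand in ε/ε and 1 receptor in γ1/γ1 against wild-type, and 0 of either between the mutants. Il15ra, the private chain for IL-15, read 4.39, 4.68 and 4.27 on the ε/ε arrays, 4.80, 4.39 and 5.37 on the γ1/γ1 arrays and 4.14, 4.30 and 4.11 on the wild-type arrays. All γ1/γ1 readings lay above wild-type, by a mean of 0.67 (SE 0.23, adjusted p = 0.649), where the groups fail to overlap upward for 4.68% of all genes. Crlf2, which pairs with Il7r to bind TSLP, differed by 0.39 in ε/ε (adjusted p = 0.484) and 0.44 in γ1/γ1 (adjusted p = 0.816). Without wild-type replicate 2, which read lowest, these were -0.07 and -0.01. The 8 ligands listed include Il13 and Tslp from outside the gamma chain receptors named above. Of them 2 passed the filter, Il13 at 0.64 (SE 0.26, adjusted p = 0.168) and Il7 at 0.26 (adjusted p = 0.464) in ε/ε. Their wild-type means of 3.84 and 3.68 lay near the array medians of 3.53 to 3.69. Il9 itself was set aside as dim, with means of 2.56, 2.05 and 2.16 in ε/ε, γ1/γ1 and wild-type cells.

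Downstream, the kinases and STAT factors showed 1 call in ε/ε and none in γ1/γ1. Of 9 genes listed, 7 were measured and tested, 0 rose and 1 fell in ε/ε, and the median difference was 0.15 against -0.013 over all genes. Over all genes tested 6.34% were called in ε/ε and 0.0411% in γ1/γ1, so counts this small say little about the list. Jak1, the kinase on the private chain, differed by -0.32 in ε/ε (adjusted p = 0.163) and -0.08 in γ1/γ1 (adjusted p = 0.922). Jak2, another kinase of the list, fell from 7.02 ± 0.24 to 6.28 ± 0.22 in ε/ε, by 0.74 (SE 0.18, adjusted p = 0.0438). The call was lost on leaving out ε/ε replicate 1 or 3, γ1/γ1 replicate 2 or 3 or any wild-type array, with an adjusted p of up to 0.158. With all arrays kept it was also lost under quantile normalization (-0.59, adjusted p = 0.0972), median centring (0.062) and no filter (0.0615), and with only the arrays compared (0.0737). In all, 13 of 19 alternatives ended it. Between ε/ε and γ1/γ1 0 of 7 passed in limma, with 1 at an unadjusted p under 0.05, Jak2 itself (-0.77, adjusted p = 0.055). In γ1/γ1 0 of 7 passed in limma and 1 had an unadjusted p under 0.05. That was Stat5a, which differed by 0.53 (SE 0.23, adjusted p = 0.727), while Stat3, a further target of the Il9r chain, differed by 0.17 (adjusted p = 0.836).

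Among the adaptors and the PI3K arm, Irs2 rose in ε/ε. Irs2 is an adaptor phosphorylated by the IL-4 and insulin receptors. It read 7.49, 5.73 and 5.87 on the ε/ε arrays, 5.51, 4.61 and 4.05 on the γ1/γ1 arrays and 4.53, 3.82 and 3.90 on the wild-type arrays. The ε/ε arrays lay above all the others. The difference from wild-type was 2.28 (SE 0.48, 4.86-fold, adjusted p = 0.0235), and it was 1.72 without ε/ε replicate 1 (adjusted p = 0.0422), the array of high macrophage markers. Without wild-type replicate 2 or 3 the adjusted p was 0.102 and 0.0895, and with only the arrays compared it was 0.0532. Against γ1/γ1 the difference was 1.64 (SE 0.48, adjusted p = 0.0999). Of 8 genes tested 1 rose and 0 fell in ε/ε, with a median of 0.10. The shares called over all genes were 6.34% in ε/ε and 0.0411% in γ1/γ1. In γ1/γ1 0 passed in limma, with 0 at an unadjusted p under 0.05. The 2 smallest p there belonged to the adaptor Shc1 (0.30, adjusted p = 0.727) and the PI3K subunit Pik3r1 (-0.21, adjusted p = 0.812).

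Of 17 inhibitors of JAK-STAT signalling 1 rose and 0 fell in ε/ε, with a median of 0.04. That is near the share called over all genes, 6.34% in ε/ε, which was 0.0411% in γ1/γ1. Sh2b3, an adaptor that restrains cytokine receptor kinases, rose from 4.97 ± 0.42 to 5.90 ± 0.05, by 0.93 (SE 0.21, adjusted p = 0.0314). It missed the threshold without any ε/ε array, γ1/γ1 replicate 2 or wild-type replicate 2 or 3, with an adjusted p of up to 0.13. The call was also lost with only the arrays compared (0.0686) and without both arrays of low Xist (0.0715). Cish, Socs1, Socs2 and Socs3, the inhibitors that cytokine signals induce, differed by 0.03, 0.10, 0.06 and 0.48 in ε/ε and by -0.04, 0.14, 0.08 and 0.43 in γ1/γ1. None of these 4 passed, with Socs3 nearest at an adjusted p of 0.197 in ε/ε and 0.735 in γ1/γ1. All 4 were dim, near the array medians of 3.53 to 3.69, so a change below that level would not be seen. Cish read 3.67 to 3.89, Socs1 3.51 to 4.27, Socs2 3.64 to 4.13 and Socs3 3.59 to 4.55 over the arrays. In γ1/γ1 0 of 17 passed in limma and 0 had an unadjusted p under 0.05, with a median of -0.02.

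Target genes of STAT5 and STAT6 moved in both directions in ε/ε. Of 17 tested 1 rose and 2 fell, with a median of 0.10, where 2.33% of all genes were called higher and 4.02% lower. The survival genes Bcl2 and Mcl1 fell by 1.66 and 0.87 (adjusted p = 0.00152 and 0.00753), and the growth regulator Myc rose by 0.76 (SE 0.18, adjusted p = 0.0332). Myc missed the threshold without any ε/ε or any wild-type array, with an adjusted p of up to 0.133, nor did it pass without both arrays of low Xist (0.0809). Compared with γ1/γ1, 1 fell in ε/ε and 0 rose, with Bcl2 at -1.87 (SE 0.18, adjusted p = 0.00169). In γ1/γ1 0 passed in limma against wild-type and 2 had an unadjusted p under 0.05. These were Mcl1 at -0.40 (adjusted p = 0.633) and Fcer2a, the CD23 gene that IL-4 induces. Fcer2a read 9.91, 10.29 and 10.16 in γ1/γ1 and 9.51, 9.14 and 9.02 in wild-type cells. These did not overlap and differed by 0.89 (SE 0.21, adjusted p = 0.364).

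**Figure D3:**
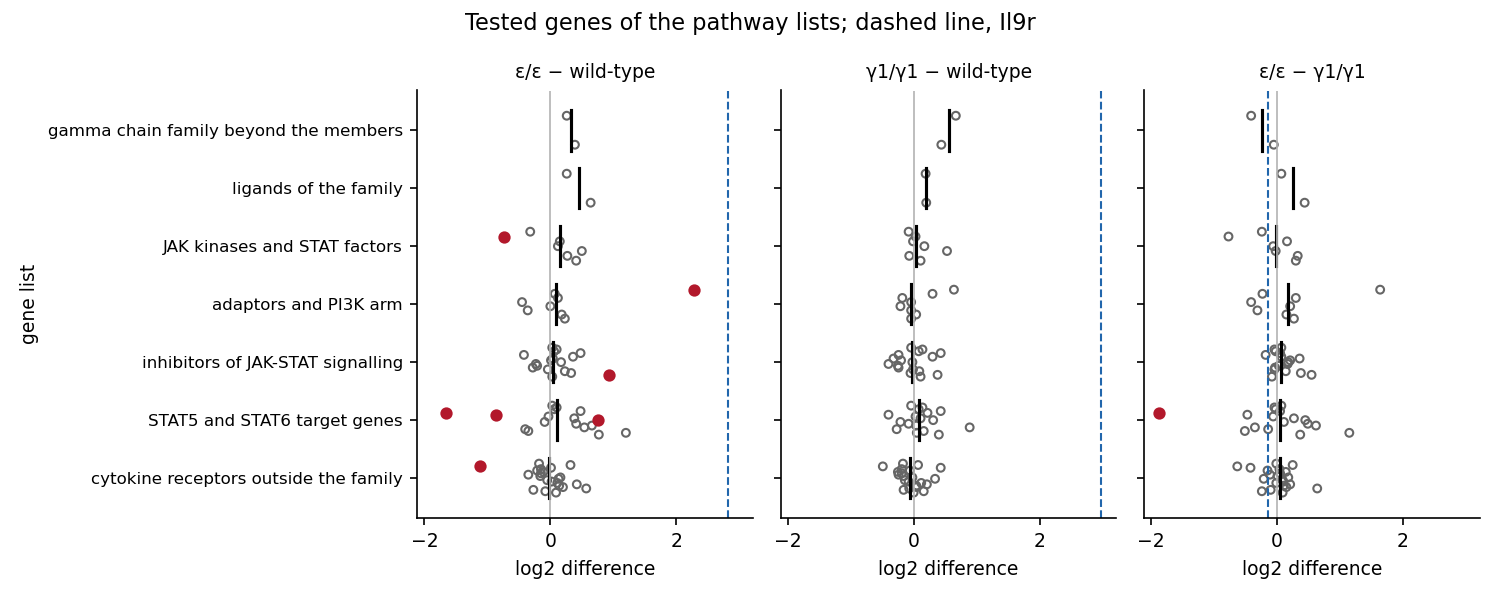
Log2 differences (horizontal axis) of the tested genes of each list in the 3 comparisons; filled points passed at an adjusted p under 0.05, black bars are list medians and the dashed line is Il9r. The points past the threshold lie in ε/ε minus wild-type, apart from Bcl2 at -1.87 in ε/ε minus γ1/γ1, and no listed gene reaches the Il9r difference against wild-type.

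Among cytokine receptors outside the family, listed for comparison, 1 was called. Of 38 listed, 36 were measured and 22 tested, 0 rose and 1 fell in ε/ε, and the median was -0.02. The count is near the share called over all genes, 6.34% in ε/ε and 0.0411% in γ1/γ1. The call was Il5ra, the IL-5 receptor chain, which read 3.95, 2.64 and 3.61 in ε/ε and 4.60, 4.30 and 4.68 in wild-type cells. In ε/ε it was dim, with replicates 2 and 3 below or within the array medians of 3.53 to 3.69, so the size of its fall is uncertain. Il5ra fell by 1.12 (SE 0.29, adjusted p = 0.0475), and by 0.74 without ε/ε replicate 2 (adjusted p = 0.0513). The call was also lost without ε/ε replicate 3 or any γ1/γ1 or wild-type array (up to 0.142), without the filter (0.0743) and with only the arrays compared (0.11). In γ1/γ1 0 of 22 passed in limma and 1 had an unadjusted p under 0.05, Il27ra at 0.34 (adjusted p = 0.709), followed by Il6ra at 0.43 (adjusted p = 0.778).

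The genes whose pattern over the 9 arrays was most like that of Il9r were found by the root mean square difference between log2 profiles, each centred on its own mean. They were Lilrb4a (0.689), an inhibitory receptor gene, Pou2af1 (0.759), a B cell coactivator, Cacna1e (0.761), Rpph1 (0.773), the RNA of ribonuclease P, and Traf1 (0.776), an adaptor of TNF receptors. Lilrb4a read 6.06 to 6.30 on the ε/ε arrays, 6.41 to 7.63 on the γ1/γ1 arrays and 2.96 to 5.33 on the wild-type arrays. Over the other 12169 genes tested the median was 1.437. Il21r, at 1.367, stood 3184 in this order, and Il4ra, at 1.56, stood 9976. The 5 names depended on the wild-type arrays, since 3, 2 and 3 of them were found again without wild-type replicates 1, 2 and 3.

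Beside Il9r on chromosome 11, Snrnp25 and Rhbdf1 also read higher on every mutant array than on any wild-type array. Of the 6 nearest genes measured, 3 on each side in the RefSeq order, 5 were tested and 2 had all mutant arrays above all wild-type arrays, a pattern of 1.90% of all genes tested. They were the 2 nearest on the side of higher coordinates. Snrnp25, a gene for a subunit of the minor spliceosome, read 7.69, 8.44 and 7.75 on the ε/ε arrays, 7.68, 8.57 and 8.35 on the γ1/γ1 arrays and 7.11, 7.12 and 7.32 on the wild-type arrays. Its difference was 0.78 (SE 0.26, adjusted p = 0.0955) in ε/ε and 1.02 (SE 0.26, adjusted p = 0.458) in γ1/γ1. Rhbdf1, an inactive rhomboid protein gene, differed by 0.64 in ε/ε (SE 0.18, adjusted p = 0.059). In γ1/γ1 it differed by 0.68 (SE 0.18, adjusted p = 0.482). Without ε/ε replicates 1, 2 and 3 its ε/ε difference was 0.77, 0.51 and 0.64, with an adjusted p of 0.048, 0.135 and 0.105, and under quantile normalization it was 0.69 (adjusted p = 0.0459). The next on that side, Nprl3, differed by -0.19 and 0.32.

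**Figure D4:**
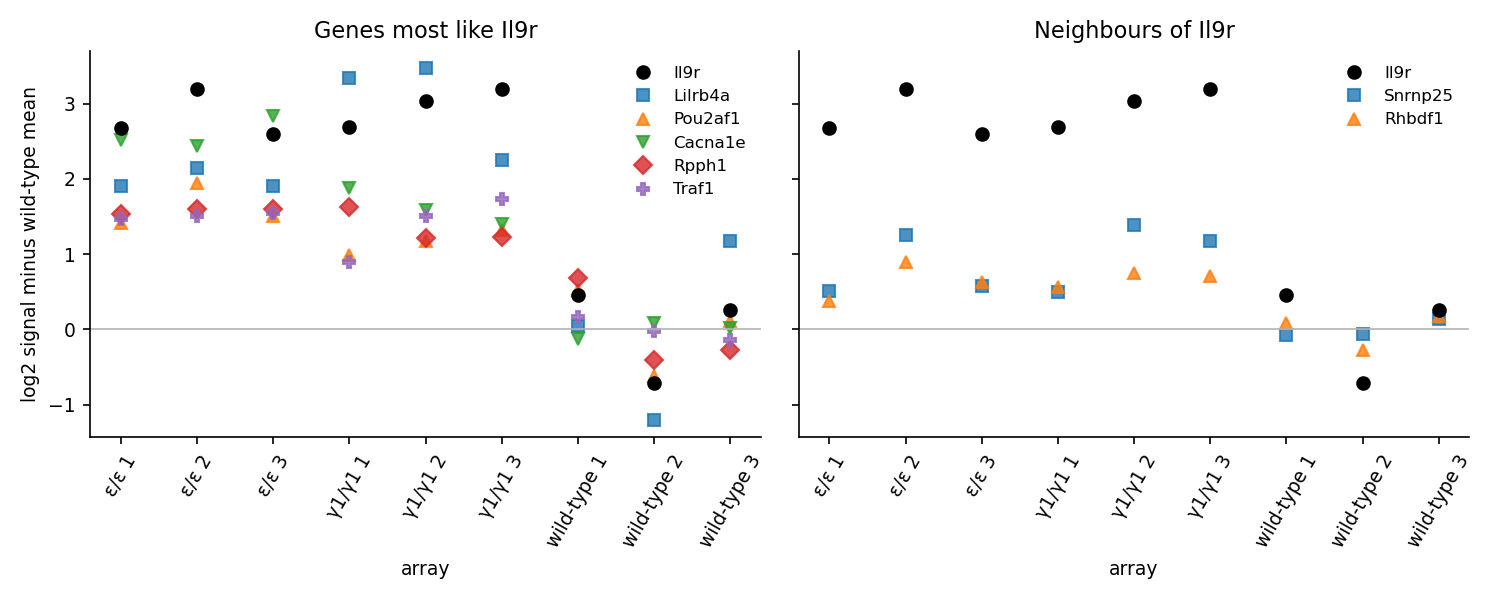
Log2 signal minus the gene's wild-type mean (vertical axis) on each of the 9 arrays, for Il9r with the genes most like it (left) and with the neighbours Snrnp25 and Rhbdf1 (right). Il9r lies above the neighbours on all mutant arrays, and its lowest wild-type reading is replicate 2.

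Markers of the cells a spleen sort could hold were set beside these values. All 9 measured B cell markers passed the filter. Their summed signal was 12.42 to 12.55 on the ε/ε arrays, 12.10 to 12.34 on the γ1/γ1 arrays and 11.93 to 12.40 on the wild-type arrays. Follicular markers summed to 10.75 to 11.14, 11.27 to 11.53 and 11.07 to 11.30 in the same order, with 7 tested. Of these 2 fell and 0 rose in ε/ε, both against wild-type and against γ1/γ1, and in γ1/γ1 against wild-type 0 passed in limma, with 1 at an unadjusted p under 0.05. Mean levels in that order were 9.76, 10.12 and 9.22 for Fcer2a, 7.48, 9.05 and 9.47 for Zfp318, and 7.52, 8.65 and 8.48 for Cd55, named after their values were seen. Marginal zone markers, of which 11 of 12 were measured, summed to 10.36 to 10.56, 10.15 to 10.25 and 9.90 to 10.04. Their sum was lowest in wild-type cells, as Il9r was, and Cr2 was the brightest of them. The part of marginal zone cells in the Il9r difference was not tested. Of the 10 tested, 4 rose in ε/ε and 0 in γ1/γ1 in limma. In γ1/γ1 4 had an unadjusted p under 0.05, counted in either direction. Over all genes tested, calls in ε/ε against wild-type were 2.33% higher and 4.02% lower. In γ1/γ1 they were 0.0247% higher and 0.0164% lower, so the count of 0 there is near the share. An unadjusted p under 0.05 was reached by 24.8% of all genes in ε/ε and 6.82% in γ1/γ1. Single markers went both ways in γ1/γ1 and are named after their values were seen. Mean levels in the same order were 5.24, 4.39 and 3.56 for Myof and 6.98, 5.22 and 6.16 for Cd36. Memory B cell markers summed to 7.66 to 8.02, 7.85 to 8.02 and 7.66 to 7.90, with Nt5e and Cd80 below the filter and 0 of 5 tested called in either mutant in limma. At an unadjusted p under 0.05 there were 2 in ε/ε and 1 in γ1/γ1.

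Macrophage markers, all 13 measured, summed to 8.03 to 11.19 on the ε/ε arrays, 7.55 to 7.74 on the γ1/γ1 arrays and 7.49 to 7.59 on the wild-type arrays. Without ε/ε replicate 1, the array of the highest sum, the Il9r difference of ε/ε from wild-type was 2.90. The part of these cells in the Il9r difference was not tested, and ε/ε replicates 2 and 3 still summed to 8.69 and 8.03. T cell markers were at or near background: of 10 measured 1 passed the filter, Cd3d, Cd3e, Cd3g and Cd4 did not, and the sums lay between 6.35 and 6.68 on all arrays. Of 7 mast cell and basophil markers, cells known to carry the IL-9 receptor, 0 passed the filter, and the sums lay between 5.43 and 5.80. In bulk samples, fewer cells of a type and less RNA per cell cannot be told apart. Xist, transcribed from the inactive X chromosome of females, read 5.25 and 4.53 in ε/ε replicate 1 and γ1/γ1 replicate 1 against 10.37 to 10.79 elsewhere, and Il9r read 8.52 and 8.53 on those arrays.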

How the data were processed

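Total RNA of sorted cells was amplified, labelled with biotin and measured on 9 single-colour arrays, per the labels' protocols. The authors deposited log2 values for 41345 probe sets. Their software was R 3.3.1, per the submitters' processing notes. How background, normalization and summary were handled is not given in the sources used here. Array medians lay between 3.53 and 3.69, 0 pairs of arrays held identical values, and the number of arrays limits the precision.

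The platform annotation paired 23521 probe sets with 1 symbol, 1814 with several and 16010 with none. The brightest probe set stood for each of 22180 genes. A gene was tested when its signal exceeded the array median of all probe sets on at least 3 of the 9 arrays, which left 12170 genes. All arrays entered 1 model in limma 3.58.1 (R 4.3.3) with 1 mean per genotype and no covariate, and p-values were adjusted by Benjamini-Hochberg over the 12170 genes. The fit was tested on simulated data.

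The members, gene lists and marker lists were chosen with earlier results of these data known. From each list the genes called with the largest difference were named, or else the 2 with the smallest p. The rise of Il9r over wild-type chose the set, so it carries no test. Promoter windows come from RefSeq (GRCm38.p6), which holds 7 of the 8 members, and figures were drawn with matplotlib 3.10.9. The alternatives were quantile normalization, median centring, the mean of probe sets, no filter, a stricter filter at percentile 75, a trended and robust variance, only the arrays compared, the replicate block, each array left out, both arrays of low Xist left out, and an adjusted p under 0.1.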

Additional observations from a re-analysis of the deposited data

How the results depend on the processing

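The count of related chains called stayed 0 in each comparison under all 19 alternatives, near the share over all genes for so few chains. Il9r stayed between 2.46 and 3.20 against wild-type in the 18 that give it a value, and its difference of ε/ε minus γ1/γ1 between -0.34 and -0.04 in all 19. The number of genes called moved more. Leaving out 1 array gave 186 to 789 for ε/ε against wild-type, 0 to 6 for γ1/γ1 against wild-type and 122 to 330 for ε/ε against γ1/γ1. Only the arrays compared gave 424, 0 and 56. Without both arrays of low Xist 3 genes were called in γ1/γ1 against wild-type and 88 in ε/ε against γ1/γ1. The cause was not tested, beyond the fewer samples of each such fit. With all arrays kept, the looser threshold of an adjusted p under 0.1 gave 1626 and 803 in ε/ε against wild-type and γ1/γ1. Where the γ1/γ1 count was 0 in limma, the genes at an unadjusted p under 0.05 numbered 974 with only the arrays compared, 846 with the replicate block and 1016 without γ1/γ1 replicate 2.

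The labels do not say whether replicate numbers pair the arrays, and the values did not settle it. Of 9 same-numbered pairs, 1 had deviations correlated above 0.1. Yet for 6 of 9 arrays the closest array of another genotype had the same number. With the replicate block 668, 0 and 237 genes were called, Irs2 in ε/ε against γ1/γ1 reached an adjusted p of 0.0217, and Jak2, Sh2b3 and Myc lost their calls in ε/ε against wild-type (0.0613, 0.0545 and 0.0579). Signs turned, with no gene past the threshold, for Il21r in ε/ε against wild-type under quantile normalization (0.09). Crlf2 turned without wild-type replicate 2 (-0.07 in ε/ε, -0.01 in γ1/γ1), and between the mutants after median centring (0.01), without ε/ε replicate 1 (0.03) and without the arrays of low Xist (0.01). Il13 in γ1/γ1 against wild-type was -0.02 without γ1/γ1 replicate 1 and without the arrays of low Xist. Il7 between the mutants was -0.16 and -0.19 without ε/ε replicate 1 and without the arrays of low Xist. Among the dim chains, which were not tested, Il7r turned in the 3 comparisons, as far as -0.38, 0.17 and -0.24. Il13ra1 turned as far as -0.19, 0.09 and -0.16, and Il2rb between the mutants as far as -0.03. Over the fits that leave out 1 array, Crlf2 ranged from -0.07 to 0.65, -0.01 to 0.70 and -0.13 to 0.03 in the 3 comparisons, Il13 in γ1/γ1 from -0.02 to 0.35 and Il7 between the mutants from -0.16 to 0.23.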

Other observations

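Some target genes of STAT5 and STAT6 read higher in ε/ε cells without passing the threshold, and are named here after their values were seen. Id2, a repressor of E proteins, differed from wild-type by 1.20 in ε/ε (limma adjusted p = 0.151) and by 0.05 in γ1/γ1 (adjusted p = 0.99). Its highest reading, 6.63, was ε/ε replicate 1, the array with the highest macrophage marker sum, and their part in it was not tested. Lta, the lymphotoxin alpha gene, differed by 0.77 (adjusted p = 0.0655) and 0.40 (adjusted p = 0.769). Ccnd3, a D-type cyclin, differed by 0.41 (adjusted p = 0.13) and -0.08 (adjusted p = 0.936). Pim1, a kinase gene that STAT5 induces, differed by -0.03 and 0.03. Bcl6 and Il4ra of the same list read lower in ε/ε, at -0.35 (adjusted p = 0.34) and -0.40 (adjusted p = 0.278). The list median in ε/ε was 0.10.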
